A study of Mus musculus with 2 samples.

Results

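The genes described here are 48 components of bone morphogenetic protein (BMP), transforming growth factor beta (TGF-beta) and activin signalling, among 18193 genes read by the array. They were chosen by name, as the genes of the ligands, receptors, Smad proteins, inhibitors and target genes of these pathways, and each was read by the probe sets that the platform annotation assigned to that gene alone. These were 106 of 45101 probe sets. RNA came from CD34-positive epithelial cells that were sorted out of carcinogen-induced mouse skin tumours, with 1 array for a wild-type mouse and 1 for a K14CreER:Rosa-VEGF-164 mouse. Mice of both genotypes received the carcinogen DMBA at postnatal days 23, 25 and 27, then TPA, a phorbol ester that promotes tumours, over several weeks, and more DMBA at 7 weeks of age. In the second genotype the keratin 14 promoter, which is active in basal keratinocytes, drives a hormone-dependent Cre recombinase meant to switch on a VEGF-164 transgene. The time of Cre induction, the age at sorting and the number of animals or tumours behind each array were not stated in the labels.

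BMPs, TGF-betas and activins are secreted dimers that bring type I and type II serine/threonine kinase receptors together. BMP receptors activate Smad1 and Smad5, TGF-beta and activin receptors activate Smad2 and Smad3, and both kinds of Smad join Smad4 and enter the nucleus, where they act on target genes such as those of the Id proteins. In skin, BMP signals hold hair follicle stem cells at rest and guide hair differentiation, TGF-beta restrains keratinocyte division, and activin is induced in wounds.

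The promoters of 4 genes that the results below turn on are shown first: the activin subunit genes Inhba and Inhbb, whose ratios had opposite signs, the activin receptor gene Acvr2a, at least 2-fold lower, and Id4, the highest ratio among the target genes. Each is the stretch of 250 bases before the gene's start in the RefSeq table for GRCm38.p6, written 5′ to 3′ on the gene's strand. Capitals mark GGCGCC, a GC-rich element that Smad proteins of the BMP branch can bind.
Inhba, chr13:16011601-16011850 (+ strand): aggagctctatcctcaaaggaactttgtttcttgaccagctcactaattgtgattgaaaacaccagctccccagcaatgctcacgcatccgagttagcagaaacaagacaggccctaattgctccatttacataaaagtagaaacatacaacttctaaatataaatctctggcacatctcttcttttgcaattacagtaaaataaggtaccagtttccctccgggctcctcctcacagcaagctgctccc
Inhbb, chr1:119422249-119422498 (- strand): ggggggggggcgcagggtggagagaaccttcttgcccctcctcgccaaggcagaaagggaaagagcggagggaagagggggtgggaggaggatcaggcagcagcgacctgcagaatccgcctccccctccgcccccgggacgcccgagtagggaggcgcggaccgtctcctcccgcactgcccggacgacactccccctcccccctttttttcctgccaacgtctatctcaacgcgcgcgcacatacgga
Acvr2a, chr2:48813859-48814108 (+ strand): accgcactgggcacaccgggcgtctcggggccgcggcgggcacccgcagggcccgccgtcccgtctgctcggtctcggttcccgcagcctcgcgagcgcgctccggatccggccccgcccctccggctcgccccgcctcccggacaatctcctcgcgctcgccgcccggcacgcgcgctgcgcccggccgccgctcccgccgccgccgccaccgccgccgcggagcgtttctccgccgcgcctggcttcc
Id4, chr13:48260866-48261115 (+ strand): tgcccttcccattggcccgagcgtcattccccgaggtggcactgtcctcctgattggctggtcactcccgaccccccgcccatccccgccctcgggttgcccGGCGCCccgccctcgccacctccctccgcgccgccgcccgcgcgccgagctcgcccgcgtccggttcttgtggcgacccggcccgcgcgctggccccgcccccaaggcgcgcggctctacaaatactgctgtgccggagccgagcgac
The Inhba stretch had 43.2% G and C with 3 CG pairs, the Inhbb stretch 68.0% with 21, the Acvr2a stretch 82.0% with 49 and the Id4 stretch 75.6% with 35. The median of all 32851 promoters in the table was 52.4% with 6. The table held 48 promoters for 36 of the 48 genes, and none for Fst, Tgfbr3 and Tgfb3, which are therefore not shown. GGCGCC, which reads the same on both strands, occurred in 13 of those 48 promoters (27.1%) and in 9.59% of all promoters in the table, which are on the whole poorer in G and C than those of these genes (a median of 65.4%). CAGACA, searched on both strands as a Smad-binding sequence, occurred in 8 (16.7%) and in 17.1% of all, and the palindrome GTCTAGAC in 0 and in 0.167% of all. No match of one of these motifs can lie within a match of another. Of the 4 promoters shown, GGCGCC was found in that of Id4 alone, CAGACA and GTCTAGAC in none.

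With 1 array per genotype there was no replicate error and no test between genotypes. Signals are anti-logged MAS5 values in arbitrary units. The background, the level that 90% of 80 olfactory and vomeronasal receptor probe sets stayed under, was a signal of 19.8 for the wild-type array and 11.3 for the VEGF-labelled array. Pairs of signals below give the wild-type array first. Each gene is represented by its brightest probe set over both arrays, and the log2 ratio is the VEGF-labelled array over the wild-type array. The only error the files allow comes from comparing probe sets that read the same gene: over 4885 genes, the log2 ratio of 1 probe set had an SD of 0.50 at low signal, 0.42 at middle and 0.32 at high signal. This leaves out the spread between animals, tumours and sorts. Where another setting turned the sign of a ratio it is named: quantile normalization, centring on the median of all genes, taking the median of all probe sets of a gene, or matching of the array medians with 50 added to each signal (the offset of 50). The sorted cells carried basal keratins and epithelial markers on both arrays, with signals of 8990.5 and 8571 for Krt14, 8352 and 7875 for Krt5, and 1597 and 1905 for Epcam on the wild-type array and the VEGF-labelled array. Itga6, the gene of the basal α6-integrin used in the sort, had 3952 and 2421 (log2 ratio -0.71, and -0.50 by its other probe set), and Cd34, on which the cells were sorted, 430.3 and 751. Vegfa was lower on the VEGF-labelled array (397 against 804), and whether its probe sets read the transgene is not known here, so directions follow the label.

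Of the 48 genes, 44 were above background on both arrays, 2 (Bmp6 and Bmpr1b) only on the VEGF-labelled array with a bound, and 2 (Nog and Chrd) had no fold. Among the 46 with a ratio or a bound, 1 was at least 2-fold higher on the VEGF-labelled array, Fst, and 4 were at least 2-fold lower, Inhbb, Tgfbr3, Acvr2a and Tgfb3. These are 2.17% and 8.70% of the 46. The same calls were made for 3.87% (higher) and 8.53% (lower) of all 12198 genes with a ratio or bound. Both shares were thus near the background with these floors, which differ between the arrays. In some other settings the lower count stayed at 4 among members and fell among all genes. With a common floor it was 4 of 46 beside 624 of 12198, and with the stricter filter 4 of 39 beside 298 of 8068. After quantile normalization 4 of 47 members were lower. The counts among all 12602 genes were then 623 higher and 596 lower, in place of 472 and 1041. With the median over probe sets, 4 of 46 members were lower beside 1062 of 12240 genes. Without a background filter it was 4 of 48 beside 2770 of 18193, and with the offset of 50, 1 of 48 beside 97 of 18193. The median log2 ratio of the 46 was -0.15, with 16 above 0 and 30 below, and the median of all genes was -0.04. A ratio under 0.50 in size was found for 24 of the 46. The contrasts described next lie between single members.

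**Figure D1:**
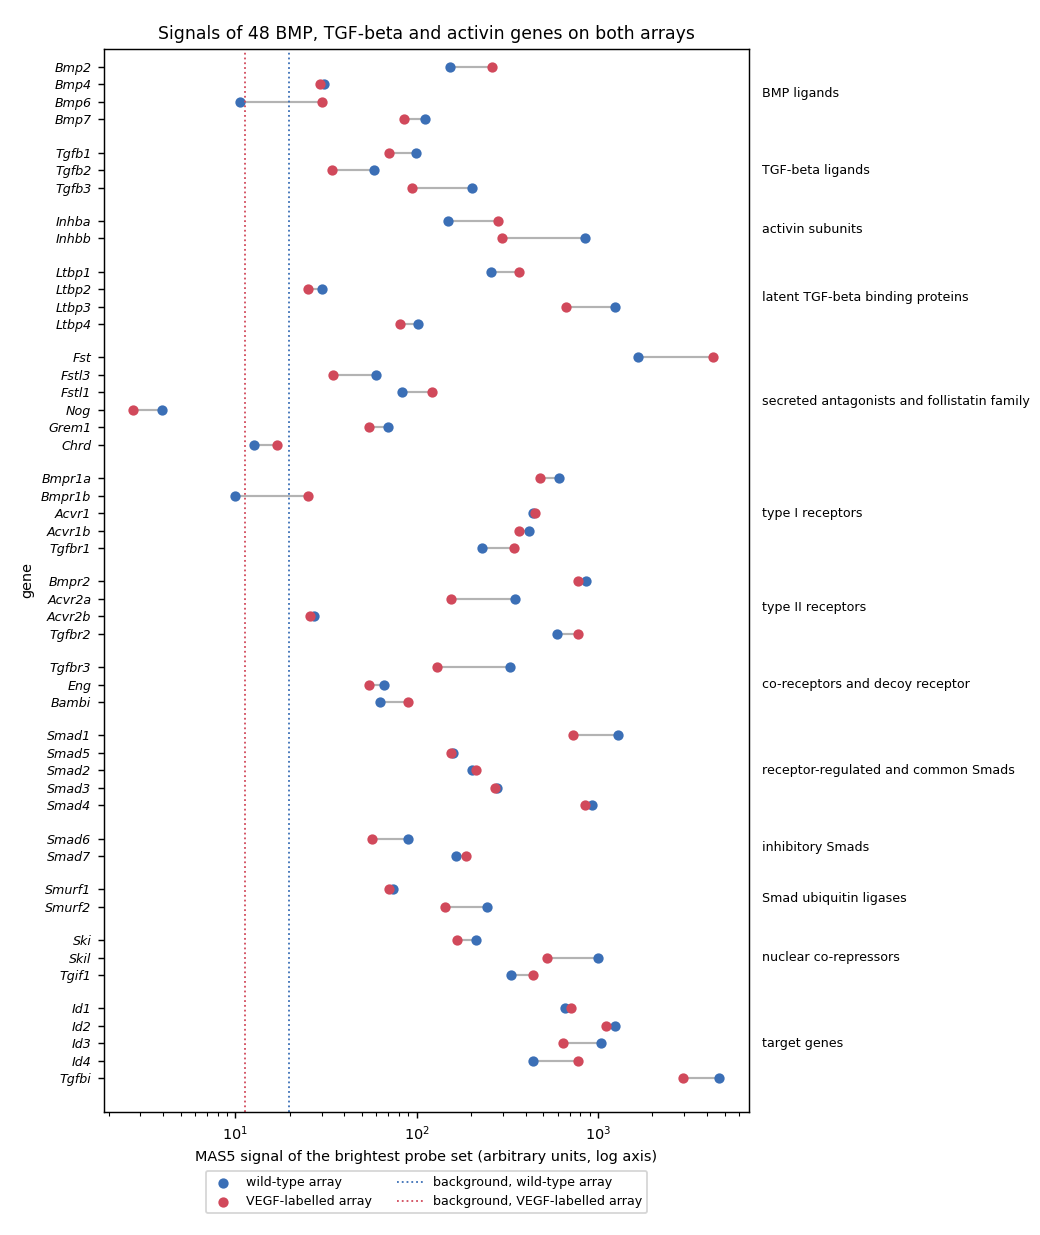
MAS5 signals of the 48 genes (rows, grouped by role) on a log axis, 1 point per array, each from the brightest probe set, with dotted lines at the 2 background levels. Fst runs from 1661 to 4329.8 and Inhbb from 854 down to 296, while Smad5, Smad2 and Smad3 have nearly equal points.

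The activin system held both the highest ratio among the members above background on both arrays, that of Fst, and the lowest, that of Inhbb. Inhbb, which encodes the βB subunit of activin B and inhibin B, had signals of 854 and 296, 2.89-fold lower (log2 ratio -1.53). Its second probe set gave 101 and 57.3, a log2 ratio of -0.82. Inhba, which encodes the βA subunit of activin A, had signals of 148 and 281, a log2 ratio of 0.92 and so just under 2-fold higher, and its only other probe set was above background on the VEGF-labelled array alone, with 16.6. The log2 ratios of the subunit genes thus had opposite signs and differed by 2.45. Fst, which encodes follistatin, a secreted protein that binds activin and keeps it from its receptors, had signals of 1661 and 4329.8, 2.61-fold higher. The second Fst probe set gave 1488 and 4093, 2.75-fold, so both probe sets read the same direction and a like size.

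Acvr2a, which encodes a type II receptor that binds activins and some BMPs, had signals of 348 and 155, 2.25-fold lower (log2 ratio -1.17), and 132 and 68.8 by its other probe set (-0.94). Acvr2b, the related receptor gene, was close to background with 27.3 and 25.9, a ratio of -0.07 that turned above 0 after quantile normalization and with the offset of 50, while its other probe set with a ratio gave -0.78. Acvr1b, which encodes the activin type I receptor ALK4, had 420 and 368 (-0.19, above 0 with the offset). Fstl3, a follistatin-like activin antagonist gene, had 59.8 and 34.7 (-0.79), a ratio opposite in sign to that of Fst. Inha, the gene of the inhibin α subunit that pairs with the β subunits to form inhibins, was not among the 48 and had 52.6 and 18.9, 2.78-fold lower.

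All 3 TGF-beta ligand genes had lower signals on the VEGF-labelled array, as they did under every other setting that gave them a value. Tgfb3 had 202 and 94.0, 2.15-fold lower from its only probe set. Tgfb2 had 58.4 and 34.4 (log2 ratio -0.76), with other probe sets at -0.82 and -0.60. Tgfb1 had 99.6 and 70.6 (-0.50) and, by its other probe set, 47.7 and 30.0 (-0.67). Of the latent TGF-beta binding protein genes, whose products hold TGF-beta in the matrix in an inactive form, Ltbp3 had 1242 and 672 (-0.89). Its other probe sets with a ratio gave -1.08 and -0.43, and the first of these and the brightest are of kinds that can bind several transcripts. Ltbp1 had the opposite sign, with 259 and 368 (0.51). Ltbp4 had 102 and 81.4 (-0.33), and Ltbp2 was near background with 30.2 and 25.2 (-0.26, above 0 after quantile normalization and with the offset).

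The TGF-beta receptor and co-receptor genes differed in sign. Tgfbr3, which encodes betaglycan, a co-receptor that presents TGF-beta2 and also binds inhibin, had 328 and 130, 2.51-fold lower (log2 ratio -1.33), and its other probe set did not exceed background on either array (15.7 and 0.81). Tgfbr2, the type II receptor gene, had 594 and 777 (0.39), and Tgfbr1, the type I receptor gene, 229 and 343 (0.58), so both signalling receptors were slightly higher where the co-receptor and the ligands were lower. Eng, which encodes endoglin, a co-receptor mainly of endothelial cells, had 66.4 and 54.4 (-0.29), and its other probe set gave -0.27. Tgfbi, a secreted matrix protein gene induced by TGF-beta, had 4689.8 and 2932 (-0.68), and all 4 of its probe sets lay below 0, between -1.12 and -0.41. The brightest is of a kind that can bind several transcripts, and the only Tgfbi probe set not of these kinds gave -0.41.

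**Figure D2:**
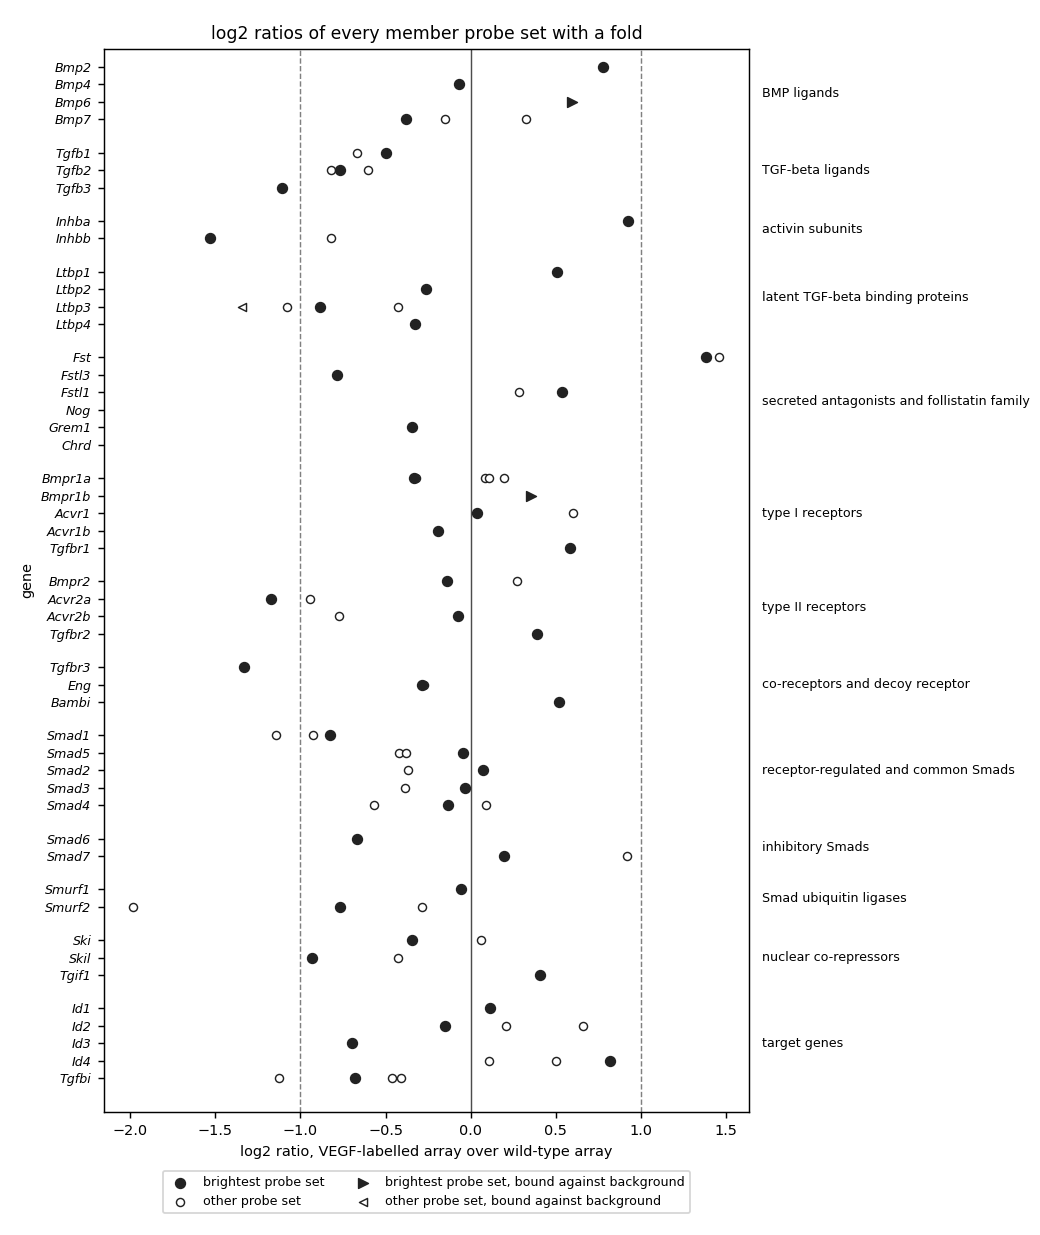
log2 ratios (VEGF-labelled array over wild-type) of every member probe set with a fold, by gene and role, filled for the brightest probe set, open for others, triangles for bounds against background; dashed lines mark 2-fold. The 3 TGF-beta ligand genes lie below 0 with every probe set shown, and Inhba and Inhbb lie on opposite sides.

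BMP ligand genes went both ways, and none was called 2-fold apart, a call that Bmp6, with a bound alone, leaves undecided. Bmp2 had 152 and 260 (log2 ratio 0.77). Bmp6 had 10.7 and 30.0, the first below background, and was at least 1.51-fold higher. Bmp7 had 112 and 85.6 (-0.38), while its other probe sets gave 0.33 and -0.15, and Bmp4 was low on both arrays with 30.8 and 29.4 (-0.07, above 0 after quantile normalization and with the offset). Of the BMP antagonist genes among the members, Nog, which encodes noggin, had 3.94 and 2.74, below background on both arrays, Chrd, which encodes chordin, had 12.6 and 16.9, above background on the VEGF-labelled array alone and with no fold, and Grem1, which encodes gremlin, had 69.9 and 54.9 (-0.35). Bambi, a decoy receptor gene that lacks the kinase, had 63.1 and 90.3 (0.52). Fstl1, a secreted follistatin-like glycoprotein gene, had 83.5 and 121 (0.54), and 0.28 by its other probe set.

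Of the genes of receptors known mainly for BMPs, Bmpr1a, Bmpr2 and Acvr1 had ratios of at most 0.33 in size. Bmpr1a, the main BMP type I receptor of the hair follicle, had 608 and 482 (log2 ratio -0.33). Its 4 other probe sets with a ratio lay between -0.32 and 0.20, and its median over probe sets was above 0. Bmpr2, the BMP type II receptor gene, had 858 and 779 (-0.14), and 0.27 by its other probe set with a ratio. Its sign turned with the median over probe sets and with the offset. Acvr1, which encodes the type I receptor ALK2, had 439 and 450.5 (0.04, below 0 after quantile normalization), and 0.60 by another probe set. Bmpr1b had 9.96 and 25.3, the first below background, and was at least 1.28-fold higher.

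Among the Smad genes, Smad1 stood apart from Smad5, with which it shares its role as a transducer of BMP signals. Smad1 had 1299 and 733 (log2 ratio -0.83), and its other probe sets gave -0.92 and -1.14, so the 3 probe sets bracketed a 2-fold lower signal. Smad5 had 160 and 155 (-0.04, above 0 with the offset), with -0.38 and -0.42 by other probe sets. The TGF-beta and activin transducers were nearly equal. Smad2 had 201 and 212 (0.07, but -0.37 by its other probe set and below 0 as the median over probe sets). Smad3 had 279 and 273 (-0.03, above 0 with the offset and after centring, and -0.39 by another probe set). Smad4, the common partner, had 928 and 844 (-0.14, above 0 with the offset), and its other probe sets spread from -0.57 to 0.09. Of the inhibitory Smads, which are induced by these pathways and block them, Smad6 had 90.3 and 56.7 (-0.67) and Smad7 165 and 189 (0.19, with 0.92 by its other probe set).

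Genes of intracellular restraints of the pathway went both ways, and none was 2-fold apart by its brightest probe set. Skil, which encodes the Smad co-repressor SnoN, had 1005 and 526 (log2 ratio -0.93), and -0.43 by its other probe set. Ski, the related co-repressor gene, had 212 and 167 (-0.35), while its other probe set gave 0.06, and Tgif1, a homeobox co-repressor gene, had 333 and 442 (0.41). Smurf2, a ubiquitin ligase gene whose product targets Smads and receptors, had 245 and 144 (-0.77), with other probe sets at -0.28 and -1.98, the widest disagreement between probe sets of any member. Smurf1 had 73.9 and 70.9 (-0.06, above 0 after quantile normalization and with the offset).

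The Id genes, helix-loop-helix inhibitors of differentiation that BMP signals induce in many cells, did not share a direction. Id3 had 1045 and 644 (log2 ratio -0.70) and Id4 had 439 and 774 (0.82), with 0.50 and 0.11 by the other Id4 probe sets. Id1 was nearly equal with 661 and 716 (0.11). Id2 had 1237 and 1111 (-0.15), but 0.66 and 0.21 by its other probe sets, and its sign turned with the offset and with the median over probe sets. Over all members, 25 genes had more than 1 probe set above background on both arrays, and in 18 of them all such probe sets had the same sign. In no member did probe sets lie beyond 0.50 on both sides of 0.

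**Figure D3:**
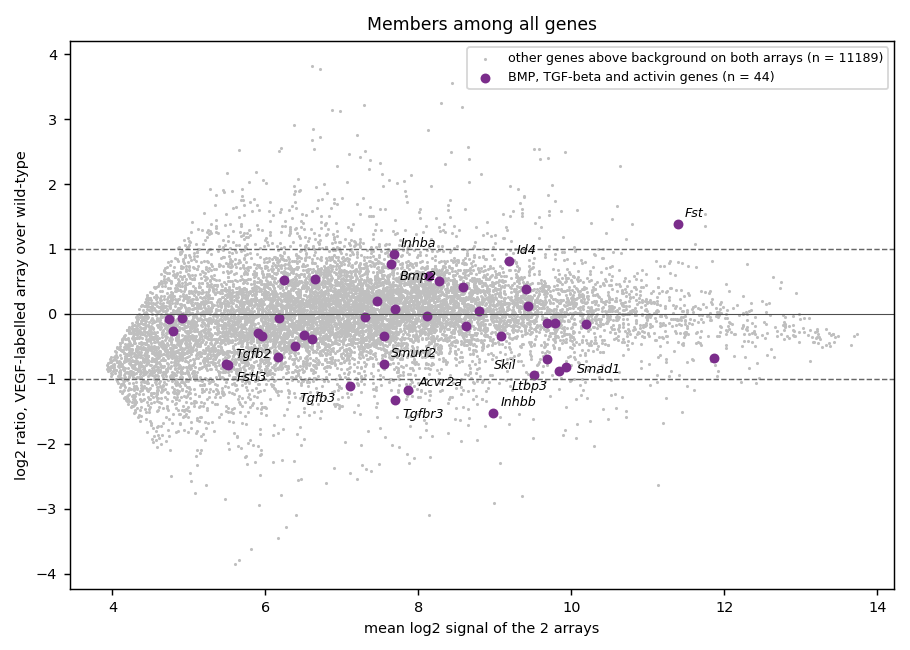
log2 ratio against mean log2 signal for genes above background on both arrays, with the 44 BMP, TGF-beta and activin genes in colour and other genes in grey; dashed lines mark 2-fold. Most members lie within the grey cloud between the dashed lines, with Fst above and Inhbb, Tgfbr3, Acvr2a and Tgfb3 below them.

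Other genes of the same pathways were taken from 6 further lists. Beside their counts, the shares over all genes were 3.87% higher and 8.53% lower by 2-fold or more. Of 6 other ligand genes with a ratio or bound, 1 was lower by 2-fold or more, Inha, and 0 higher, and their median was -0.43. Bmp5, at low signal (21.1 and 10.7), was at least 1.86-fold lower against each array's own background, but its log2 ratio was -0.09 with the common floor. Lefty1 had 68.7 and 48.2 (-0.51), and Bmp1, a procollagen protease gene rather than a true ligand, 327 and 256 (-0.35, with 0.25 by its other probe set). Of 7 other receptor and co-receptor genes, 0 were higher and 1 was lower, with a median of -0.67. The lower gene was Acvr1c, which encodes the receptor ALK7 (31.7 and 12.2, 2.61-fold, near background). Amhr2 had 85.9 and 47.4 (-0.86), the BMP co-receptor gene Rgma 94.8 and 53.1 (-0.84) and Vasn 334 and 210.1 (-0.67). Of 13 other secreted regulators, 4 were lower and 1 higher by 2-fold or more, and their median was -0.45. After quantile normalization 3 were lower and 2 higher, and with the offset of 50 the counts were 0 and 0. Itgb6, an integrin gene whose product, with the αv subunit, activates latent TGF-beta in epithelia, had 17.7 and 47.7, at least 2.41-fold higher. Itgb8, of another αv integrin that activates TGF-beta, had 538 and 207, 2.60-fold lower.

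The other lower genes of that list act on BMPs. Sostdc1, a BMP and Wnt antagonist gene of epidermis and follicle, had 3202 and 1544, 2.07-fold lower (log2 ratio -1.05), and its other probe set gave -1.07. Nbl1, an antagonist gene of the DAN family, had 92.4 and 34.8, 2.66-fold lower. The last of the 4 was Fbn2, which encodes fibrillin-2, a matrix protein that holds BMP complexes (38.1 and 16.6, 2.29-fold). Of 18 other intracellular regulators, 0 were called 2-fold apart, with a median of 0.01, although Smad9 had a bound alone, and 2 were lower without the background filter. Those named by size were Smad9, at least 1.84-fold lower with 20.8 and 1.61, Strap, a Smad7 partner gene (597 and 1091, 0.87), and Wwp2 (65.1 and 105, 0.69), and Fkbp1a had 1961 and 2044 (0.06). The Smad9 bound rests on the lower background of the VEGF-labelled array, and with the common floor its log2 ratio was -0.07.

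Of 19 further TGF-beta target genes, 1 was at least 2-fold higher, again Itgb6, and 0 were lower, with a median of -0.23. Postn, which encodes periostin, had 1595 and 798 (just under 2-fold lower), Plaur, the urokinase receptor gene, 145 and 289 (0.99), and Bhlhe40, a helix-loop-helix repressor gene, 1806 and 1819.6 (0.01). Of 12 further BMP target genes, 5 (41.7%) were lower and 0 higher by 2-fold or more, and their median was -0.77. These were Msx2 (37.0 and 9.48, at least 3.26-fold), Gata3 (205 and 75.4, 2.72-fold), Zfp703 (478 and 211, 2.26-fold), Lef1 (41.6 and 18.7, 2.23-fold) and Sox9 (695 and 336, 2.07-fold, with -0.91 by its other probe set), and Tob1 had 2064 and 1514 (-0.45). Msx2 was above background on the wild-type array alone, and with the common floor its log2 ratio was -0.90, under 2-fold. The share among all genes was 8.53%, and with the offset of 50 the count of lower targets was 0. Hair matrix and shaft markers were lower on the same array, as given below, and their part in these values was not tested. Several of these targets are hair follicle genes and were known to be lower on this array when the list was written, so the share is not independent evidence.

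**Figure D4:**
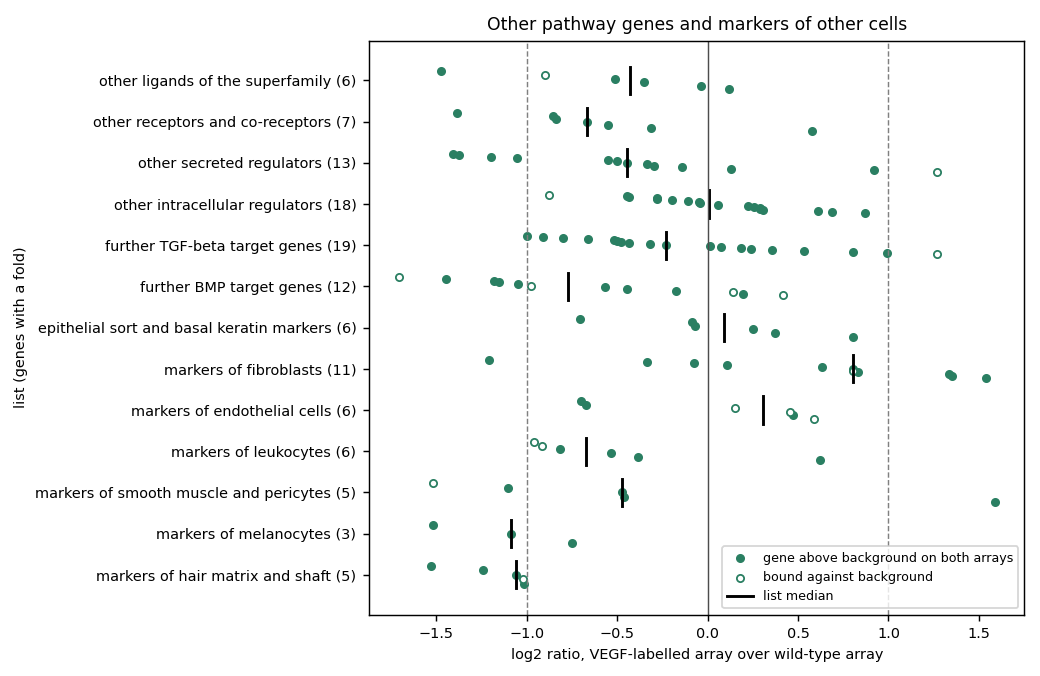
log2 ratios (VEGF-labelled array over wild-type) of genes of the 6 further pathway lists and the 7 marker lists, 1 point per gene, open for bounds against background, with a bar at each list's median; the number of genes with a fold stands in brackets and dashed lines mark 2-fold. The medians lie at -0.77 for further BMP target genes, -1.06 for hair matrix and shaft markers and 0.80 for fibroblast markers.

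Markers of other cells differed between the arrays, although the sort included antibodies against CD45, CD31 and CD140a, which mark leukocytes, endothelial cells and fibroblasts, in a shared colour. Of 5 hair matrix and shaft markers with a ratio or bound, 5 had a signal lower by 2-fold or more on the VEGF-labelled array, with a summed signal over the 8 on the array of 277 and 126. That count was 3 after centring, 2 with the common floor, 1 after quantile normalization and 0 with the offset of 50. The stricter filter left none of these markers to count. Over all genes with a ratio or bound, 8.53% were lower and 3.87% higher by 2-fold or more. Krt35 (22.96 and 1.38) was above background on the wild-type array alone, and Krt71 on the VEGF-labelled array alone (9.0 and 13.7, no fold). The inner root sheath keratin gene Krt25 was below background on both arrays (3.56 and 3.31). Of 11 fibroblast markers, 3 were higher (Col1a2, Fbln2 and Col3a1) and 1 lower (Thy1), and the summed signal of the 12 listed was 1542 and 3336. The defining fibroblast marker Pdgfra had 9.86 and 34.7, the first below background, and was at least 1.75-fold higher. Of 9 endothelial markers, 3 and 6 were above background, with none over 42.9 on either array. Of 11 leukocyte markers, 6 and 5 were above background, summing to 365 and 310.0, and Ptprc had 14.4 and 17.3. Of 7 smooth muscle and pericyte markers, 1 was higher (Mcam) and 2 were lower (Acta2 and Des), and the sum was 2035 and 1169.9. Of 3 melanocyte markers with a ratio, 2 were lower (Dct and Tyrp1), and the sum over 5 was 364 and 170.3. In a sorted population read as a whole, fewer cells of a type and less RNA per cell cannot be told apart, and the part of these markers in the ratios of the 48 genes was not tested.

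**Figure D5:**
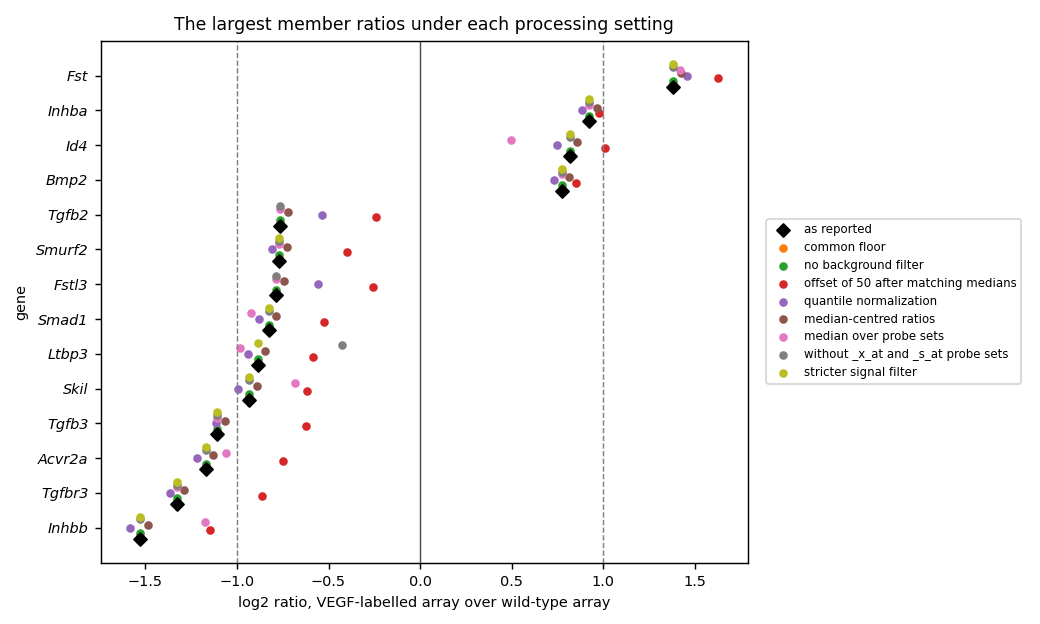
log2 ratios (VEGF-labelled array over wild-type) of the 14 members at least 0.75 in size, as reported (black diamonds) and under 8 other processing settings (coloured points); dashed lines mark 2-fold. Fst stays between 1.38 and 1.63, while with the offset of 50 Inhbb is at -1.15 and Tgfbr3, Acvr2a and Tgfb3 lie at -0.86, -0.75 and -0.62.

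The 14 members with a ratio of at least 0.75 in size kept their sign under all 8 other settings that gave them a value, as shown in the plot of ratios by setting. Some of these settings could not turn a sign here. The common floor, the stricter filter and the absence of a background filter leave ratios of genes this far above background unchanged. Centring adds 0.04 to every ratio. Fst was at least 2-fold higher in every setting. Inhbb was at least 2-fold lower in every setting, with ratios between -1.58 and -1.15, whereas Tgfbr3, Acvr2a and Tgfb3 were under 2-fold with the offset of 50. Id4 reached 2-fold with the offset (1.01) and gave 0.50 as the median over its probe sets.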

How the data were processed

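Affymetrix whole-genome arrays were read for CD34-positive tumour epithelial cells, 1 array per genotype. The authors deposited log2 signals per probe set, and MAS5 is named per the submitters' processing notes; its version and its scaling target were not stated there. On the linear scale both arrays had a trimmed mean (2% from each end) of 100.04. Of 45101 probe sets, 34958 had 1 gene in the platform annotation, 932 had several and 9211 none. Only the first were used, and 1 probe set naming a member beside another gene was left out. MAS5 keeps no depth, and the number of arrays limits the precision.

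Signals at or below each array's background gave bounds against it, written "at least", and no fold where both arrays were below or the bound was under 1-fold. Genes were counted at 2-fold. Names and lists were chosen with earlier results of these data known. All 48 genes were named, with the other pathway genes named by the 3 largest ratios and the brightest gene per list or where at least 2-fold apart. A further 8 settings were tried. Calculations used Python 3.11.15, numpy 2.4.6 and pandas 2.3.3 and were tested on simulated data. With 1 array per group no test was possible and no p-value is given. Promoter sequences are from RefSeq, GRCm38.p6.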

Additional observations from a re-analysis of the deposited data

How the results depend on the processing

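The counts among the 48 genes, 1 at least 2-fold higher and 4 lower, were the same with a common floor, quantile normalization, centred ratios, the median over probe sets, probe sets ending in _x_at or _s_at left out, and the stricter signal filter. The common floor and the stricter filter leave the ratios of these genes as they are, and centring adds 0.04 to each. Among all genes the lower count was 624 of 12198 with the common floor and 596 of 12602 after quantile normalization. With the stricter filter it was 298 of 8068. Without a background filter 3 were higher, the additional genes being Bmp6 (1.49) and Bmpr1b (1.35), both below background on the wild-type array. With the medians matched and an offset of 50, 2 were higher and 1 was lower, and the median log2 ratio of members was 0.078 in place of -0.15. That setting has no background filter, so it covers 18193 genes in place of 12198. The median of all genes was 0.06 there, 0.10 above the -0.04 as reported. The split was 380 higher and 97 lower, in place of 472 and 1041. Over the same 18193 genes without filter or offset, the median was -0.076, with 1675 higher and 2770 lower. Matching the medians raises the VEGF-labelled array, and the offset shrinks ratios at low signal. The sign turned in 10 members with the offset, 5 after quantile normalization, 4 with the median over probe sets and 1 after centring, 13 genes in all, the largest of them 0.33 in size as reported. The counts in the smaller lists rest on few genes. With the common floor 4 further BMP target genes and 2 hair matrix markers were lower by 2-fold or more. With the stricter filter 3 further BMP target genes were lower, with Msx2 and Lef1 left out for low signal. That filter removed every hair matrix marker, so it gave no count for them. No paired analysis was possible because each genotype had 1 array. Low signal limits Nog, Chrd, Bmp6 and Bmpr1b, which had a probe set at or below background on 1 or both arrays.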
